A study of Mus musculus with 23 samples.

Results

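The keratin gene family was taken as every gene whose symbol is Krt followed directly by a number, with pseudogenes left out. It comprised 53 of the 54347 genes in the table, and 2 further symbols of that form, Krt74 and Krt8-ps, were left out as pseudogenes. RNA sequencing with Smart-seq2 had been done on 23 libraries of cells from the labial cervical loop of the lower incisor of mice at postnatal day 2. All mice carried Sox2-GFP, a reporter in which the endogenous Sox2 promoter drives green fluorescent protein, and enzyme-dissociated cells were separated by flow sorting. The 4 groups were Sox2-negative cells of batch A (n = 6), Sox2-positive cells of batch A (n = 6), Sox2-negative cells of batch B (n = 4) and Sox2-positive cells of batch B (n = 7). The labels describe the Sox2-positive cells as dental epithelial stem cells, and the batches as separate days with different mice. The Sox2-negative cells are all other sorted cells of the dissected region and were not chosen by a marker of their own. The labels do not state whether libraries of a batch are separate mice, so n counts libraries and every p-value measures the spread between libraries, which may be technical.

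Keratins are the intermediate filament proteins of epithelial cells. A filament is built from pairs of a type I (acidic) and a type II (basic to neutral) keratin, so members of both types are needed, and the pairing differs with cell state: Krt5 with Krt14 in the basal layer of stratified epithelia, Krt8 with Krt18 in simple epithelia, Krt1 with Krt10 above the basal layer of skin. The filaments end at desmosomes and hemidesmosomes and give the sheet its mechanical strength. In the incisor, the cervical loop is the epithelial fold that supplies the enamel-forming cells of the continuously growing tooth.

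The family lay in 2 gene clusters (GRCm38, GENCODE M21). The 28 type I members were 27 genes between 99232761 and 100269871 on chromosome 11 and Krt18, which lies beside Krt8 in the type II cluster. The 25 type II members and Krt18 lay between 101347444 and 102032027 on chromosome 15. The start regions of 6 of the members with values below are shown because they share a letter pattern that is uncommon among other start regions, while their levels differ widely. Each run is the 100 bases before the RefSeq start, written 5′ to 3′ on the gene's strand, and capitals mark TATAA or ATAAA on that strand within the 50 bases before the start. Krt5 lies on the minus strand (chr15:101712906-101713005), as do Krt10 (chr11:99389365-99389464), Krt75 (chr15:101573905-101574004), Krt36 (chr11:100105627-100105726) and Krt24 (chr11:99285263-99285362), and Krt18 lies on the plus strand (chr15:102028116-102028215), all by RefSeq on build GRCm38.p6.
Krt5: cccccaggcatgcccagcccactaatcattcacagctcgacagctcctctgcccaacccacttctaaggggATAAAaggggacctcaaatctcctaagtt
Krt18: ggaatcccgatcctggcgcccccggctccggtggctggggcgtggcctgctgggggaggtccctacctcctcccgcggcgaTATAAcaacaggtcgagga
Krt10: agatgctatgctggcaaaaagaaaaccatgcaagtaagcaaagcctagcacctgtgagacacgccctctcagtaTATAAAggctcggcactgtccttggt
Krt75: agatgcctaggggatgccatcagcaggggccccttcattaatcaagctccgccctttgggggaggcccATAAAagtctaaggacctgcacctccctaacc
Krt36: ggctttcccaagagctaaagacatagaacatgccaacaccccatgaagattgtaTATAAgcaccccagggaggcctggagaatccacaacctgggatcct
Krt24: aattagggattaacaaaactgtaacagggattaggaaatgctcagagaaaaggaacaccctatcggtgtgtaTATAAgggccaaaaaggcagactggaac

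The marked letters began 29 bases before the start of Krt5, 19 before that of Krt18, 32 before that of Krt75, 46 before that of Krt36 and 28 before that of Krt24. In Krt10 the overlapping letters of both patterns began 26 and 25 bases before the start. RefSeq start regions were matched for 36 keratin genes, among them 10 of the 16 members named below. TATAA or ATAAA in that place and strand was found in 29 of the 36 (80.6%), against 8.72% of all 32851 start regions in the table. It was present in 8 of the 10 named members, the exceptions being Krt14 and Krt8. In the members not shown, the letters began nearer the start, at 7 bases before it in Krt7 and at 15 and 14 in Krt27. The RefSeq starts of Krt14 and Krt8 lie 1518 and 140 bases inside the GENCODE gene. That of Krt7 lies 1360 bases inside and that of Krt18 36 bases inside. The marked letters of Krt18, which began 19 bases before its RefSeq start, thus lie inside the GENCODE gene. The place searched and the pair TATAA or ATAAA were chosen after the regions had been looked at. Over the whole 300-base regions (250 before and 50 after the start, both strands), an AP-2 pattern, GCCNNNGGC, was found in 19.4% of the keratin regions and 16.6% of all regions. The AP-1 pattern TGANTCA was found in 1 of the 36 (7.81% of all regions), the GC box GGGCGG in 2 (35.7%) and the SOX pattern AACAAT in 2 (10.7%), with none of the last in the 10 named members. A match is a description of letters and not of binding.

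Column totals of estimated counts ran from 2305778 to 9541443 with a median of 4831091. Levels are CPM, that is, counts divided by the TMM-adjusted total of their library. The transcript of the sorting gene, Sox2, averaged 7.27 ± 4.41 CPM in Sox2-positive libraries of batch A (SD, n = 6) and 16.4 ± 2.91 in those of batch B (n = 7), against 0.0436 and 0.297 in the Sox2-negative libraries. Over both batches, all 8 listed epithelial markers other than keratins passed the test as higher in Sox2-positive cells, as did 5 of 6 glial and neural crest markers, while 1 was lower. The 9 mesenchymal, 7 leukocyte, 5 endothelial and 6 erythroid markers were all lower. Of the markers of ameloblasts, the enamel-forming epithelial cells, 5 were tested, of which 4 were lower and 1 was higher. In the same test, 24.9% of all genes were higher and 32.5% lower. Summed ameloblast markers of the Sox2-negative libraries ran from 747 to 939.7 CPM in batch A and from 596 to 712 in batch B, and summed glial and neural crest markers from 24.2 to 59.0 and from 34.5 to 51.1. The part of either list in the keratin differences was not tested. The summed epithelial markers of the Sox2-negative libraries were not 0. They ran from 90.2 to 166 CPM in batch A and from 215 to 240 in batch B, against 2304 to 2612 and 2845 to 3353 in Sox2-positive libraries. Markers also moved with batch. Summed erythroid markers were 983 to 1175 CPM in Sox2-negative libraries of batch A and 53603 to 62032 in those of batch B, and summed leukocyte markers 2921 to 3273 and 552 to 631. Summed ameloblast markers were 293 to 349 CPM in Sox2-positive libraries of batch A and 9.80 to 17.3 in those of batch B, and summed glial and neural crest markers 774 to 982 and 37.8 to 72.2. In batch B the glial and neural crest sums of the 2 populations thus overlapped. Libraries 1 and 2 of the batch B Sox2-positive group stood apart from libraries 3 to 7 for several keratins, and results that rest on them are also given without libraries 1 and 2 of both batch B populations.

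Of the 53 members, 16 had a mean of at least 1 CPM over the 4 group means, 9 of type I and 7 of type II. A mean of at least 1 CPM was reached in some group by 23 members and in every group by 7. By group, the number was 9 for Sox2-negative and 17 for Sox2-positive cells of batch A, and 11 and 21 for those of batch B. Another 30 members were below 1 CPM in every group (highest group mean 0.848 CPM, Krt28), and 3 of these, Krt20, Krt34 and Krt2, had no count in any library. The last member inside the threshold was Krt222, at 1.14 CPM, and the first outside it was Krt83, at 0.914. By the roles listed for them, all 3 basal keratins of stratified epithelium passed that level, 4 of 7 simple epithelial keratins, 3 of 6 inducible and appendage keratins and 3 of 11 suprabasal and mucosal keratins. For the keratins of the inner root sheath of hair it was 1 of 7, for those of the hair shaft 1 of 14 and for the others 1 of 5.

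**Figure D1:**
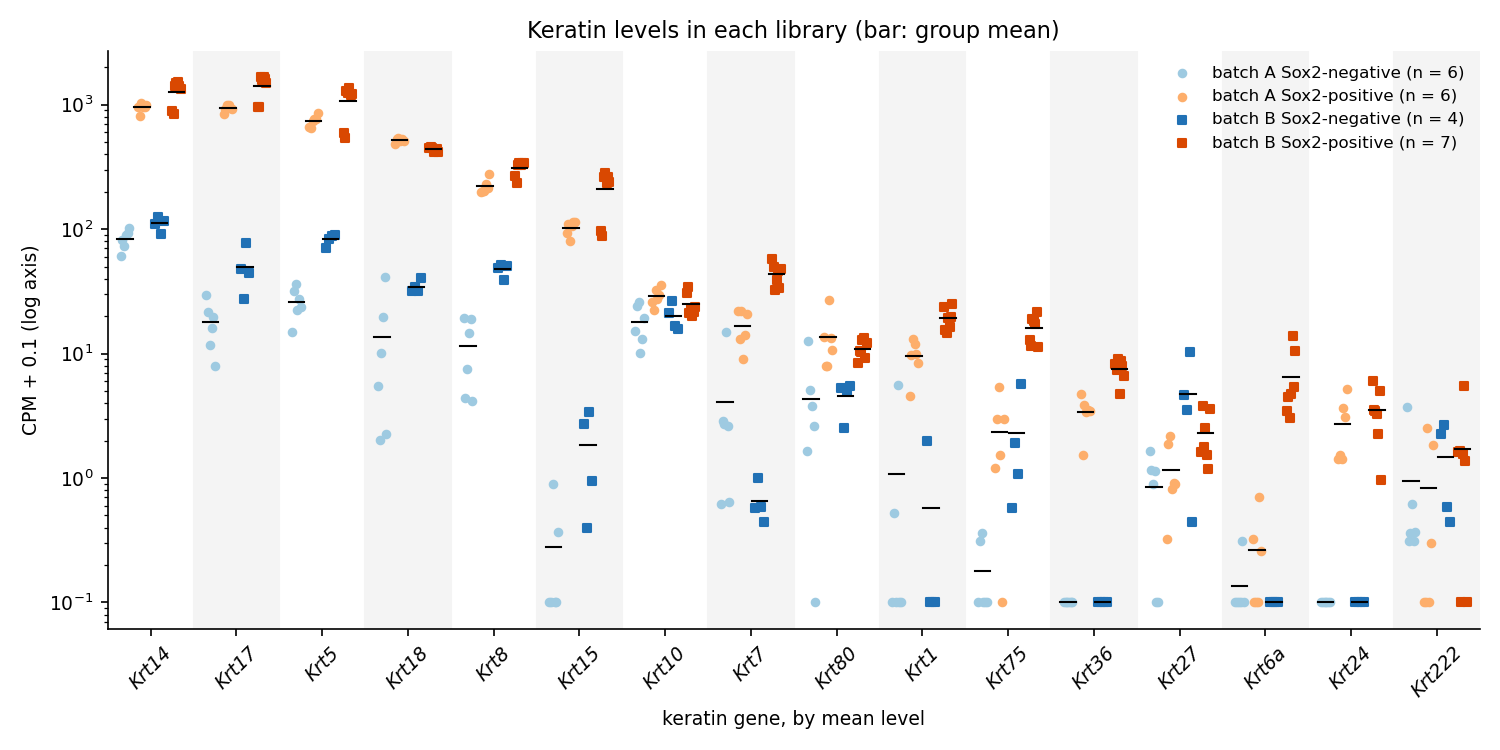
Levels of the 16 keratins with a mean of at least 1 CPM, each point a library, by group, on a log10 axis of CPM plus an offset of 0.1 so that 0 can be drawn, with horizontal marks at group means. The points of Krt14, Krt17, Krt5, Krt18, Krt8 and Krt15 in Sox2-positive libraries lie above every Sox2-negative library of the same batch.

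Sox2-positive cells carried far more keratin transcript than Sox2-negative cells in both batches. The fit over both batches, edgeR's quasi-likelihood test with batch as a covariate and Benjamini-Hochberg adjustment over 17190 genes, tested 17 of the 53 members; 15 were higher in Sox2-positive cells and none was lower at an adjusted p under 0.05. None was lower at an unadjusted p under 0.05 either, or by DESeq2 or limma-voom. Over all genes tested, 24.9% were higher and 32.5% lower. The median log2 difference of the 17 was 4.10 (3.48 with 3 genes that had no count in the Sox2-negative group at their lower bound), against -0.12 over all genes. Of the 17, 8 passed the filter on low counts through both populations, 8 reached it through Sox2-positive libraries only and Krt222 only through both together. Members kept only by the group where they are high lean towards a difference by that choice, so the count and the median describe the members tested and not the family. In bulk libraries of sorted cells, fewer epithelial cells and less keratin RNA per cell cannot be told apart.

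The basal keratins of stratified epithelium, Krt5, Krt14 and Krt15, were all higher in Sox2-positive cells. Krt5 (type II; chromosome 15:101707070-101712898, minus strand) is the basal-layer partner of Krt14. Its level ran from 14.7 to 36.4 CPM (median 25.2) in Sox2-negative and from 648 to 854 CPM (median 749.9) in Sox2-positive libraries of batch A. In batch B it was 70.1, 82.7, 88.1 and 89.4 CPM in the 4 Sox2-negative libraries and 539.9 to 1374 CPM (median 1229) in the Sox2-positive libraries. The ranges lay far apart in both batches, and the mean ratio was 28.5 (batch A) and 12.9 (batch B). The log2 difference over both batches was 4.28 ± 0.21 (SE; edgeR, Benjamini-Hochberg adjusted p 2.702e-15).

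Krt14 (type I; chromosome 11:100203162-100207548, minus strand) is the type I keratin of the basal layer. It ran from 60.5 to 102 CPM (median 85.99) in batch A Sox2-negative and from 818 to 1032 CPM (median 963) in batch A Sox2-positive libraries. The batch B values were 111, 126, 91.97 and 115 CPM against 842 to 1514 CPM (median 1414). The mean ratio was nearly equal in the batches, 11.4 and 11.5, and the interaction of population with batch was 0.00 on the log2 scale (edgeR, Benjamini-Hochberg adjusted p 1.00). The log2 difference over both batches was 3.52 ± 0.12 (edgeR, Benjamini-Hochberg adjusted p 2.26e-19). Of the 31-base words in Krt14 transcripts, 29.2% also occur in other genes, mainly Krt16, Krt17 and Krt42, so part of its estimated count depends on how shared reads were divided.

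Krt15 (type I; chromosome 11:100131758-100135928, minus strand), used as a marker of the hair follicle bulge, was close to 0 in Sox2-negative cells. The 6 batch A Sox2-negative libraries held 4 counts in all, and ran from 0 to 0.791 CPM (median 0). The batch A Sox2-positive libraries ran from 80.3 to 115 CPM (median 108). In batch B it was 2.62, 0.3000, 3.26 and 0.8496 CPM in Sox2-negative and 88.6 to 281 CPM (median 239.8) in Sox2-positive libraries. Every Sox2-positive library was thus above every Sox2-negative one, with a mean ratio of 119 in batch B. The log2 difference was 9.08 ± 0.50 in batch A and 6.92 ± 0.52 in batch B (edgeR, Benjamini-Hochberg adjusted p 8.86e-10 and 1.61e-08), and the batch A value was 10.44 without Sox2-negative library 3, which held the highest level of its group.

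Of the 7 simple epithelial keratins, Krt8, Krt18, Krt7 and Krt80 were higher in Sox2-positive cells over both batches. Krt18 (type I; chromosome 15:102028180-102032027, plus strand) and Krt8 (type II; chromosome 15:101996698-102004482, minus strand) form the filament pair of simple epithelia. Krt18 ran from 1.92 to 41.2 CPM (median 7.72) in batch A Sox2-negative and from 482 to 536 CPM (median 520.3) in batch A Sox2-positive libraries. Batch B gave 31.7, 34.1, 31.5 and 40.4 CPM against 417 to 456 CPM (median 444). The Sox2-positive groups had a narrow spread (SD at most 19.0 CPM) while the batch A Sox2-negative libraries spread widely (mean 13.4 ± 15.1 CPM). The log2 difference was 5.25 ± 0.55 in batch A, or 6.06 without Sox2-negative library 5, which held 41.2 CPM, and 3.74 ± 0.12 in batch B (edgeR, Benjamini-Hochberg adjusted p 1.38e-06 and 5.16e-13).

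Krt8 ran from 4.03 to 19.4 CPM (median 11.01) in batch A Sox2-negative and from 199.96 to 279.8 CPM (median 208) in batch A Sox2-positive libraries. The batch B values were 48.7, 51.8, 38.8 and 50.8 CPM against 236 to 342 CPM (median 329.7). The ranges did not overlap in either batch, and the mean ratio was 19.4 in batch A and 6.55 in batch B. Its log2 difference over both batches was 3.48 ± 0.26 (edgeR, Benjamini-Hochberg adjusted p 1.46e-11). Krt8 shares 36.0% of its 31-base words with other genes, 32.2% with the pseudogene Krt8-ps, which makes its estimate uncertain.

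Krt7 (type II; chromosome 15:101411043-101430313, plus strand), a keratin of ducts and other simple epithelia, differed between the batches. In batch A it ran from 0.517 to 14.9 CPM (median 2.58) in Sox2-negative and from 9.01 to 22.01 CPM (median 17.3) in Sox2-positive libraries. In batch B it was 0.475, 0.9001, 0.489 and 0.3399 CPM in Sox2-negative and 32.4 to 57.4 CPM (median 46.3) in Sox2-positive libraries. The groups overlapped in batch A, where a single Sox2-negative library, number 4, held 14.9 CPM and the others at most 2.78, and were far apart in batch B. The mean ratio was 4.19 in batch A and 79.2 in batch B, and the log2 difference 2.08 ± 0.70 (3.20 without library 4) and 6.31 ± 0.34 (edgeR, Benjamini-Hochberg adjusted p 0.0247 and 2.62e-10). Over both batches it was 3.58 ± 0.64, or 4.46 without that library and 2.98 without libraries 1 and 2 of batch B.

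Krt80 (type II; chromosome 15:101347444-101370162, minus strand), a keratin linked to cell junctions in many epithelia, had means of 4.23 ± 4.45 CPM in Sox2-negative and 13.4 ± 7.13 in Sox2-positive libraries of batch A (SD). In batch B they were 4.49 ± 1.41 and 10.9 ± 1.92. The batch A ranges overlapped and the batch B ranges did not. The log2 difference over both batches was 1.47 ± 0.42 (edgeR, Benjamini-Hochberg adjusted p 0.00443). In batch A alone it was 1.66 ± 0.74 (adjusted p 0.0804, but 0.0394 with DESeq2, 0.0230 with limma-voom and 0.0177 without Sox2-negative library 2), and in batch B alone 1.34 ± 0.36 (adjusted p 0.00496, or 0.0535 without libraries 1 and 2). Among the rest of the list, Krt19 had at least 1 CPM only in batch B Sox2-positive cells, at 1.65 CPM with a count in 7 of 7 libraries, and was higher there than in Sox2-negative cells of the batch (log2 difference 2.61 ± 0.96, edgeR, Benjamini-Hochberg adjusted p 0.0294). That call was lost under the replicate block (adjusted p 0.0879), with no filter on low counts (0.0569) and without Sox2-negative library 2, 3 or 4 (0.0683 to 0.0781), and the gene was not tested without Sox2-positive library 3, 4, 5 or 6. Sox2-negative library 1 held all counts of that group, and without it the log2 difference was 6.16, or 6.26 without libraries 1 and 2 of both populations. These fitted values are against a group left with no count and depend on the prior count. Krt23 had 36 counts in all, every one in batch B Sox2-positive cells (mean 1.09 CPM).

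Of the 6 inducible and appendage keratins, Krt17, Krt75 and Krt6a were higher in Sox2-positive cells over both batches. Krt17 (type I; chromosome 11:100256217-100261029, minus strand) is a keratin of hair follicles and other skin appendages that also appears in injured epidermis. It ran from 7.79 to 29.7 CPM (median 17.9) in batch A Sox2-negative and from 837 to 1000.1 CPM (median 936) in batch A Sox2-positive libraries. The batch B values were 48.1, 27.2, 77.9 and 44.5 CPM against 951 to 1668 CPM (median 1572). The ratio of means, 52.9 in batch A and 28.6 in batch B, came from ranges that did not overlap in either batch. The log2 difference over both batches was 5.29 ± 0.23 (edgeR, Benjamini-Hochberg adjusted p 8.38e-17).

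Krt75 (type II; chromosome 15:101563345-101573904, minus strand), a keratin of the hair follicle's companion layer that has also been described in enamel, was at or near 0 in batch A Sox2-negative cells. It had 2 counts in all in batch A Sox2-negative libraries and ran from 0 to 5.27 CPM (median 2.15) in batch A Sox2-positive libraries. In batch B it was 0.475, 1.800, 0.978 and 5.61 CPM in Sox2-negative and 11.2 to 21.4 CPM (median 17.2) in Sox2-positive libraries. The batch B groups did not overlap, and 1 Sox2-negative library, number 4, was well above the other 3. The log2 difference was 3.37 ± 0.60 over both batches and 2.93 ± 0.55 in batch B (edgeR, Benjamini-Hochberg adjusted p 2.86e-05 and 2.92e-04), or 4.12 and 3.95 without that library.

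Krt6a (type II; chromosome 15:101689910-101694307, minus strand), which epidermis makes after injury, had 1 count in batch A Sox2-negative, 5 counts in batch A Sox2-positive and none in batch B Sox2-negative libraries. The batch B Sox2-positive libraries were above this, from 2.91 to 13.6 CPM (median 4.61). Against a floor of 3 counts per library, its level there was at least 14.1-fold higher than in Sox2-negative cells of batch B. The fitted log2 difference over both batches, which depends on the prior count, was 5.36 ± 1.09 (edgeR, Benjamini-Hochberg adjusted p 1.498e-04); it was 6.98 without batch A Sox2-negative library 5, 4.77 without batch B Sox2-negative library 1 and 3.81 without libraries 1 and 2 of batch B. Of its 31-base words, 66.6% occur in other genes, 49.3% in Krt6b, whose mean was below 1 CPM in every group. Krt79, another member of the list, had a mean of 1.19 CPM in batch A Sox2-positive cells from 2 of 6 libraries (median 0), which fell to 0.483 without library 4.

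Suprabasal and mucosal keratins were less uniform: Krt1, Krt10 and Krt24 passed the test as higher in Sox2-positive cells, with differences of very unequal size, and the other 8 were below 1 CPM in every group. Krt10 (type I; chromosome 11:99385254-99389364, minus strand), a keratin of differentiating epidermis, had means of 17.8 ± 6.27 CPM in the Sox2-negative and 28.8 ± 4.63 in the Sox2-positive libraries of batch A (SD, n = 6 each). Its batch B means were 19.96 ± 4.81 (n = 4) and 24.9 ± 5.46 (n = 7). Its ranges overlapped in both batches, and mean ratios were 1.62 and 1.25. The log2 difference was 0.52 ± 0.19 over both batches (edgeR, Benjamini-Hochberg adjusted p 0.0211) and missed the threshold in each batch alone (0.70 ± 0.31, adjusted p 0.0768, and 0.39 ± 0.24, adjusted p 0.171), although in batch A it passed with DESeq2 (0.0408), limma-voom (0.0444) and total-count scaling (0.0475) and without Sox2-negative library 3 (0.84, adjusted p 0.0423). The gene Gm11940 overlaps Krt10 on the opposite strand at a mean of 0.845 CPM, and with no strand setting stated the reads of such a pair cannot be told apart; the same holds for Krt80 with Gm35853 (2.48 CPM) and Krt8 with Gm36026 (0.531 CPM).

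Krt1 (type II; chromosome 15:101845426-101850794, minus strand), the usual partner of Krt10, was at or near 0 in most Sox2-negative libraries. In batch A it ran from 0 to 5.49 CPM (median 0) against 4.43 to 12.98 CPM (median 9.77), and in batch B it was 1.902, 0, 0 and 0 CPM against 14.6 to 25.1 CPM (median 19.2). In each batch 1 Sox2-negative library held nearly all of that group's signal, number 4 in batch A and number 1 in batch B, and the batch A groups overlapped through that library alone. The log2 difference was 3.26 ± 1.08 in batch A and 5.16 ± 0.77 in batch B (edgeR, Benjamini-Hochberg adjusted p 0.0221 and 3.35e-05), or 6.33 and 9.68 without those libraries. The last value is against a group left with no count and depends on the prior count. Krt24 (type I; chromosome 11:99279959-99285262, minus strand) had no count in any of the 10 Sox2-negative libraries and ran from 1.32 to 5.099 CPM in the Sox2-positive libraries of batch A and from 0.864 to 5.89 CPM in those of batch B. Against the floor these levels were at least 3.56-fold and at least 7.51-fold higher. Summed markers of keratinised epithelium, the cells in which Krt1 and Krt10 are best known, ran from 2.31 to 18.6 CPM in the Sox2-negative and from 3.22 to 14.7 in the Sox2-positive libraries of batch A. Their batch B ranges were 2.28 to 15.6 and 5.19 to 22.7. Of these 9 markers 3 were tested and none passed, and involucrin (Ivl) was at 0 in all libraries.

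Keratins of the hair were nearly silent, with a few exceptions at low level. Krt36 (type I; chromosome 11:100102007-100105626, minus strand), listed with the hair shaft and also known from nail and tongue, had no count in any Sox2-negative library. It ran from 1.43 to 4.65 CPM (median 3.38) in the Sox2-positive libraries of batch A and from 4.61 to 8.896 CPM (median 7.81) in those of batch B. Against the floor these levels were at least 4.50-fold and at least 16.4-fold higher. Every Sox2-positive library held it. Krt73, of the inner root sheath, likewise had no count in Sox2-negative libraries and averaged 2.12 and 1.17 CPM in the Sox2-positive cells of batches A and B. It had a count in 3 of 6 and 6 of 7 of these libraries, and the batch A mean was 1.22 CPM without library 4. It passed the test over both batches (edgeR, Benjamini-Hochberg adjusted p 5.87e-04), and its fitted difference depends on the prior count.

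Krt27 (type I; chromosome 11:99345565-99351104, minus strand), also of the inner root sheath, did not differ detectably between the populations. Its means were 0.743 ± 0.626 and 1.07 ± 0.709 CPM for Sox2-negative and Sox2-positive cells of batch A, and 4.604 ± 4.08 and 2.18 ± 1.03 for those of batch B. In batch B the Sox2-negative libraries held 4.52, 3.45, 10.1 and 0.3399 CPM, a spread wider than the gap between the groups. The log2 difference was -0.29 ± 0.60 over both batches and -1.01 ± 0.65 in batch B (edgeR, Benjamini-Hochberg adjusted p 0.696 and 0.2002), and the latter passed as lower without Sox2-negative library 4 (-1.39, adjusted p 0.0433). Krt71, its type II counterpart in the inner root sheath, reached 1.11 CPM in batch B Sox2-positive cells. The hair shaft keratin Krt83 had its highest mean in Sox2-negative cells, with 3.03 ± 3.27 CPM in batch A Sox2-negative libraries (2.02 without library 2) and at most 0.530 CPM as a mean in the other groups, and was not among the genes kept by the filter. Krt222 (type I; chromosome 11:99232761-99244085, minus strand), a keratin-like gene of unclear role, had means between 0.733 and 1.60 CPM and a log2 difference of -0.00 ± 0.62 (edgeR, Benjamini-Hochberg adjusted p 0.998). Krt42, with no role listed for it, averaged 1.08 and 1.58 CPM in the Sox2-positive cells of batches A and B. With 1 library left out, the means of Krt42 in batch A and of Krt71, Krt73 and Krt23 in batch B could fall under 1 CPM (0.732, 0.889, 0.942 and 0.912).

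**Figure D2:**
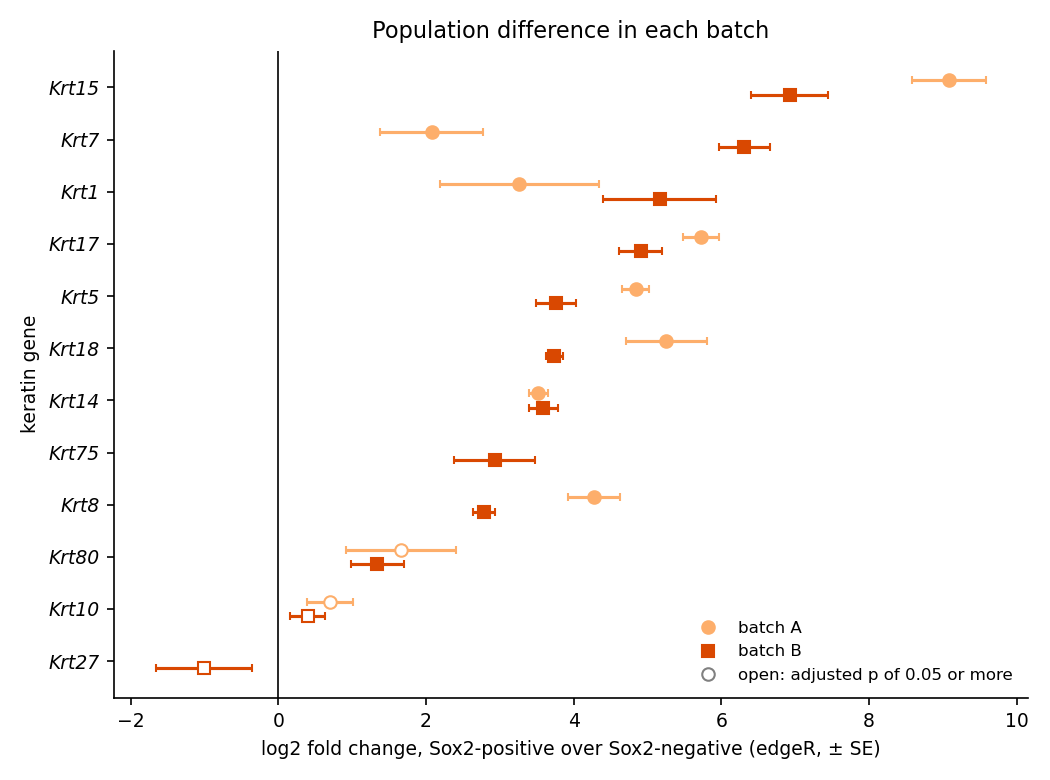
Log2 difference of Sox2-positive against Sox2-negative cells (horizontal axis) for 12 keratins, circles for batch A and squares for batch B, with bars of 1 SE from edgeR and open symbols at an adjusted p of 0.05 or more. Krt14 has nearly the same value in both batches, Krt5 and Krt8 are smaller in batch B and Krt7 is larger there.

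In each batch alone the direction was the same. In batch A, 10 members were tested and 8 were higher and none lower (19.3% of all 14296 genes tested were higher and 24.2% lower). In batch B, 17 were tested and 14 were higher and none lower (27.1% and 27.6% of 15765 genes). Krt24, Krt36 and Krt6a had no count in Sox2-negative libraries of batch B, and Krt15 had 4 counts in those of batch A. The filter kept such members through Sox2-positive libraries only, which leans them towards a difference. The numbers of calls thus describe the members tested and not the family. In both batches none was lower at an unadjusted p under 0.05 or by DESeq2 or limma-voom. Without a filter on low counts, 1 member passed as lower in each batch, Krt83 in both cases, and over both batches Krt25 and Krt83 did. Krt83 also passed as lower over both batches when any 1 of the 4 batch B Sox2-negative libraries was left out, which let it through the filter. By ranges alone, among the 16 members at 1 CPM or more, all Sox2-positive libraries lay above all Sox2-negative libraries for 8 members in batch A and for 13 in batch B, and below for none. The same separation upwards was seen for 10.8% and 15.9% of all genes at that level, and downwards for 14.3% and 20.4%. In batch B the 3 that overlapped were Krt10, Krt27 and Krt222.

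Compared per kilobase of the longest coding transcript, so that members can be set beside each other, 6 genes made up most of the family's transcripts. Krt14, Krt17, Krt5, Krt18, Krt8 and Krt15 took 98.3% ± 0.188 of the keratin signal per kilobase in batch A Sox2-positive libraries and 97.9% ± 0.662 in those of batch B (SD). In Sox2-negative libraries they took 85.6% ± 4.94 and 91.8% ± 1.49. The remainder there was mainly Krt10, at 8.63% ± 3.51 and 4.78% ± 1.26, against 0.662% ± 0.0780 and 0.468% ± 0.232 in Sox2-positive libraries. Thus Krt10, which differed little between the populations in CPM, was a visible part of the family in Sox2-negative cells and under 1% of it in every Sox2-positive library.

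The order of levels differed between the populations. In Sox2-positive cells Krt17 and Krt14 were highest, at 603 ± 37.9 and 562 ± 43.2 CPM per kilobase in batch A. The batch B levels were 911 ± 206 and 748 ± 166. These neighbours lay within their summed SD of each other in both batches. Within single libraries the ratio of Krt17 to Krt14 was 0.964 to 1.23 in batch A and 1.16 to 1.28 in batch B. By these estimates Krt17 was thus above Krt14 in every batch B Sox2-positive library. Of the 31-base words of Krt17, 15.8% occur in other genes, 11.8% in Krt14. The order and ratio of Krt17 and Krt14 therefore depend in part on how shared reads were divided. Next came Krt18 and Krt5, at 359 ± 13.2 and 336 ± 34.99 in batch A, again within their spread. In batch B their means were in the opposite order, at 304 ± 10.4 and 485 ± 157. That order held in libraries 3 to 7. In libraries 1 and 2 Krt18 was above Krt5, at 15.8% and 16.6% of the keratin signal per kilobase against 13.6% and 12.9%. Krt8 (113 ± 15.7 and 159 ± 21.4) and Krt15 (60.5 ± 7.93 and 123 ± 47.9) followed, and Krt10 lay well below at 13.7 ± 2.21 and 11.9 ± 2.61. In Sox2-negative cells Krt14 stood alone at the top, at 49.1 ± 8.79 and 65.3 ± 8.28 CPM per kilobase, and no other keratin reached its range. Below it in batch A, Krt5 (11.8 ± 3.46), Krt17 (11.4 ± 5.000), Krt18 (9.31 ± 10.5), Krt10 (8.501 ± 2.99) and Krt8 (5.82 ± 3.603) did not differ from their neighbours beyond their spread. In batch B, Krt5 (37.6 ± 3.996) was followed by Krt17 (31.9 ± 13.6), Krt8 (24.3 ± 3.04) and Krt18 (23.96 ± 2.91).

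Ratios between members within a library differed between the populations as well, and carry no test. Krt17 stood at 0.251 ± 0.155 of Krt14 per kilobase in batch A Sox2-negative and 1.08 ± 0.0937 in batch A Sox2-positive libraries, and at 0.516 ± 0.293 and 1.22 ± 0.0433 in batch B. Its mean share of the family was 11.4% in Sox2-negative and 29.2% in Sox2-positive cells of batch A, and 15.8% and 32.6% in batch B. The share of Krt14 was 48.5% and 27.2%, and 32.7% and 26.8%, in the same order. Krt14 over its partner Krt5 was 4.43 ± 1.22 in batch A Sox2-negative libraries and lay between 1.61 and 1.76 as a mean in the other 3 groups. Krt18 over its partner Krt8 was 1.40 ± 1.01, 3.23 ± 0.408, 0.993 ± 0.117 and 1.96 ± 0.364, with Sox2-negative before Sox2-positive and batch A before batch B. Type I exceeded type II transcript per kilobase in every group, with ratios of 3.74 ± 1.13, 3.48 ± 0.281, 2.12 ± 0.181 and 3.20 ± 0.341 in the same order.

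**Figure D3:**
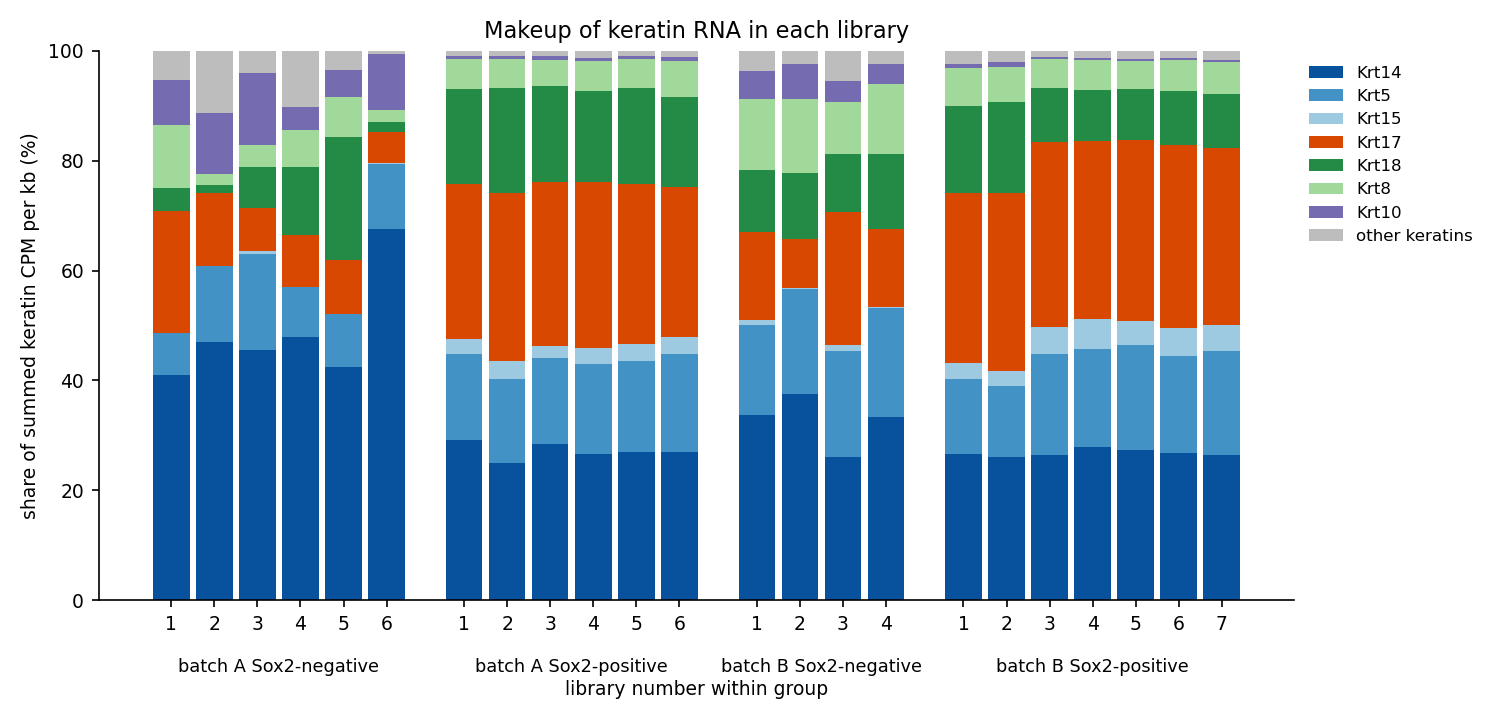
Percent of the summed keratin CPM per kilobase taken by 7 keratins and by all others, as a stacked bar for each library, in 4 groups. Krt14 takes a mean of 48.5% and 32.7% in the Sox2-negative groups, and Krt17 a mean of 29.2% and 32.6% in the Sox2-positive groups.

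The family's summed level was compared with epithelial markers measured in the same library. The keratin total ran from 156 to 224 CPM in the Sox2-negative and from 3291 to 3786 in the Sox2-positive libraries of batch A. Its batch B ranges were 349.8 to 371 and 3269 to 5715. Divided by the sum of the 8 epithelial markers, the total was 1.68 ± 0.432 in batch A Sox2-negative (range 1.13 to 2.12) and 1.45 ± 0.116 in batch A Sox2-positive libraries (1.32 to 1.59). The batch B ratios were 1.60 ± 0.111 (1.46 to 1.73) and 1.502 ± 0.241 (1.15 to 1.70). The ranges of that ratio overlapped between the populations in both batches, while those of the keratin total lay far apart.

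**Figure D4:**
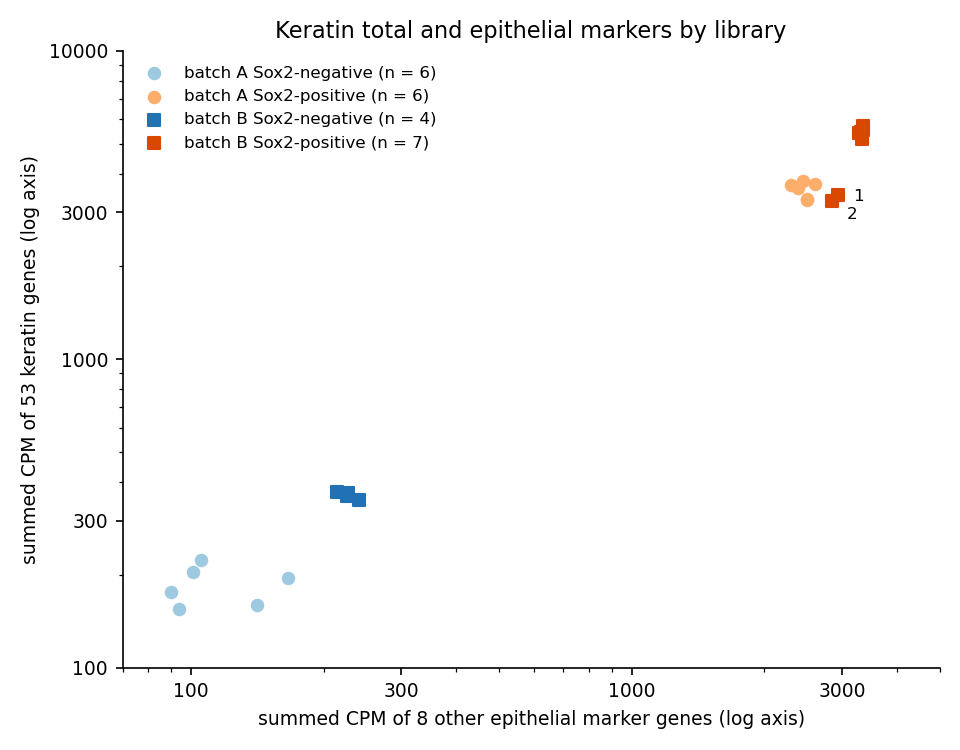
Summed keratin CPM against the summed CPM of 8 epithelial markers other than keratins, each point a library, circles for batch A and squares for batch B, both axes log10, with batch B Sox2-positive libraries 1 and 2 numbered. The Sox2-negative libraries lie at the low end (156 to 371 CPM of keratin) and the Sox2-positive libraries at the high end (3269 to 5715 CPM), with none between.

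Between batches, the Sox2-negative cells differed in several keratins. In batch B against batch A, 6 members were higher, Krt5, Krt8, Krt17, Krt18, Krt15 and Krt75, and Krt7 was lower (5.85% of all genes tested were higher and 5.35% lower, edgeR with Benjamini-Hochberg adjustment). Mean ratios were 3.19 for Krt5, 4.17 for Krt8, 2.79 for Krt17 and 2.57 for Krt18, while that of Krt14 missed the threshold (log2 difference 0.41 ± 0.15, adjusted p 0.08297). The log2 differences were 1.67 ± 0.23 for Krt5 (adjusted p 1.11e-05) and 2.05 ± 0.28 for Krt8 (adjusted p 1.44e-05). Krt15 rose from 4 counts in all of batch A (log2 difference 3.27 ± 0.81, adjusted p 0.00829, or 4.64 without batch A library 3) and Krt75 from 2 counts (4.40 ± 0.96, adjusted p 0.00305, or 3.39 without batch B library 4). Krt18 (adjusted p 0.0386) and Krt7 (0.00784) lost their calls without libraries 1 and 2 of batch B (0.179 and 0.0937); without batch A library 5 the Krt18 log2 difference was 2.15 rather than 1.34 ± 0.42, and without batch A library 4 that of Krt7 was -1.68 rather than -2.79 ± 0.69. With limma-voom and sample quality weights only Krt8 and Krt18 passed as higher and no member as lower. The call of Krt18 was also lost when any single library of either Sox2-negative group was left out, other than libraries 4 and 5 of batch A (adjusted p 0.0530 to 0.08205). With total-count scaling it was lost too (adjusted p 0.0627). Ranges separated upwards for Krt5, Krt8 and Krt75 and downwards for none of the 16 (4.55% and 4.29% of all genes). The summed epithelial markers also differed between these groups, as did the erythroid and leukocyte markers, and their part in the keratin differences was not tested.

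Among Sox2-positive cells, Krt6a, Krt75, Krt15 and Krt14 were higher in batch B and none was lower, at an unadjusted p under 0.05 or by DESeq2 either, while limma-voom gave Krt18 as lower (4.85% of all genes tested were higher and 5.54% lower, edgeR with Benjamini-Hochberg adjustment). Krt6a had the largest log2 difference, 5.08 ± 0.93 (adjusted p 5.34e-04), or 5.97 without batch A library 5, which held most of its counts in that batch. The values for Krt75, Krt15 and Krt14 were 2.79 ± 0.68, 1.02 ± 0.30 and 0.41 ± 0.13 (adjusted p 0.00648, 0.0243 and 0.0419). The call of Krt14 was lost without library 1, 2, 4, 5 or 6 of batch A or library 3, 4, 5, 6 or 7 of batch B (adjusted p 0.0517 to 0.0891). It was also lost with total-count scaling (adjusted p 0.116). The call of Krt15 was lost without library 3 of batch A or library 3, 4 or 6 of batch B (0.0503 to 0.0596). Krt17 (0.59 ± 0.21, adjusted p 0.0708), Krt5 (0.53 ± 0.19, 0.0757) and Krt7 (1.38 ± 0.47, 0.0596) missed the threshold. By ranges, Krt7, Krt75, Krt6a and Krt1 lay higher in every batch B library and Krt18 lower (3.86% and 4.61% of all genes), although the log2 difference of Krt18 was -0.24 ± 0.34 (adjusted p 0.778).

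Within the batch B Sox2-positive group, libraries 1 and 2, singled out with earlier results of these data known, differed from the rest. They were lower than libraries 3 to 7 for 5 of the 16 members, higher for 3 and overlapping for 8. Over all genes at that level, 10.9% were lower and 12.8% higher in this way. Krt5 was 539.9 to 592 CPM in libraries 1 and 2 and 1206 to 1374 in the others, Krt15 was 88.6 to 96.0 against 236 to 281, and Krt14, Krt17 and Krt8 were lower too. Krt18 (449 to 456 against 417 to 445 CPM), Krt10 (30.8 to 34.3 against 20.1 to 23.8) and Krt7 (49.2 to 57.4 against 32.4 to 47.5) were the higher ones. The keratin total was 3269 to 3414 CPM against 5186 to 5715, and its ratio to epithelial markers 1.15 to 1.16 against 1.56 to 1.70. Without libraries 1 and 2 of both populations, 6 members were higher in batch B Sox2-positive cells, Krt17 and Krt5 in addition to the 4 above, where 2.56% of all genes tested were higher and 3.67% lower. The number was also 6 without library 1 or library 2 alone and without library 1 or library 6 of the batch A Sox2-negative group. It was 2 without library 3, 4 or 6 of the batch B Sox2-positive group, which left Krt6a and Krt75.

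The population difference itself differed between batches for 3 members, tested as the interaction of population with batch (edgeR, Benjamini-Hochberg adjustment; 2.82% of all genes tested were higher and 4.22% lower). It was lower in batch B for Krt5 (log2 -1.14 ± 0.29, adjusted p 0.01504) and Krt8 (-1.56 ± 0.36, 0.00702), and higher for Krt7 (4.17 ± 0.83, 0.00182). For Krt5 and Krt8 the Sox2-negative means differed more between batches than the Sox2-positive means, and for Krt7 they moved in opposite directions. Without libraries 1 and 2 of batch B, Krt5 was -1.01 (adjusted p 0.0158), Krt7 4.40 (0.0461) and Krt8 -1.38 (0.103), so that the last no longer passed. The Krt7 value was 3.06 without batch A Sox2-negative library 4. With limma-voom and sample quality weights the adjusted p was 0.578 for Krt5 and 0.0640 for Krt7. Without batch B Sox2-negative library 1, Krt1 passed as a second higher member. Krt17 (-0.88 ± 0.33, adjusted p 0.115), Krt18 (-1.58 ± 0.54, 0.0784) and Krt15 (-2.25 ± 0.89, 0.143) missed the threshold. Krt6a missed it in the other direction (6.453 ± 2.145, adjusted p 0.0855). It had no count in batch B Sox2-negative libraries, so that value depends on the prior count.

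Genes that anchor and bundle keratin filaments moved mostly the same way. Of 12 listed and tested, 9 were higher in Sox2-positive cells over both batches and 1 was lower (24.9% and 32.5% of all genes), with a median log2 difference of 2.31 against -0.12 over all genes. Desmoplakin (Dsp), which ties keratin filaments to desmosomes, averaged 8.93 ± 6.13 and 183 ± 28.4 CPM for Sox2-negative and Sox2-positive cells of batch A, and 29.3 ± 8.54 and 440.1 ± 61.5 for those of batch B (log2 difference 4.13 ± 0.24, edgeR, Benjamini-Hochberg adjusted p 4.77e-14). Plakophilin 2 (Pkp2), a desmosomal plaque protein, rose by 6.51 ± 0.52 (adjusted p 3.69e-11), or 7.29 without batch A Sox2-negative library 2. Epiplakin (Eppk1), a keratin-binding linker, rose by 3.85 ± 0.45 (4.84e-08), and Fam83h, which acts on keratin organisation and is needed for normal enamel, by 2.73 ± 0.55 (1.19e-04), or 3.39 without batch A Sox2-negative library 5. Trichoplein (Tchp), a keratin-binding protein, was the lower one, at -0.94 ± 0.29 (0.00667), and did not pass in batch B alone (0.304). The linkers Plec (-0.08 ± 0.13, adjusted p 0.598) and Evpl (0.81 ± 0.44, 0.117) did not pass.

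Of 13 listed intermediate filament genes of other cell types and of the nucleus, 8 were tested over both batches; 3 were lower in Sox2-positive cells and 1 was higher, against 32.5% and 24.9% of all genes. Vimentin (Vim), the filament protein of mesenchymal cells, averaged 893 ± 75.5 against 175 ± 27.7 CPM in batch A and 675 ± 116 against 132 ± 16.97 in batch B (log2 difference -2.35 ± 0.09, edgeR, Benjamini-Hochberg adjusted p 3.32e-18), with an interaction of 0.00. Summed mesenchymal markers ran from 11697 to 13199.9 and from 1232 to 1788 CPM in Sox2-negative and Sox2-positive libraries of batch A and from 10875 to 13861 and 608 to 697 in those of batch B, and their part in the Vim value was not tested. Nestin (Nes), of neural and other progenitor cells, fell by 3.56 on the log2 scale, and lamin A (Lmna), of the nuclear envelope, fell by 1.08. Gfap, the filament protein of astrocytes and some Schwann cells, was higher (4.74 ± 0.74, adjusted p 5.04e-06, or 5.42 without batch B Sox2-negative library 2 and 5.35 without libraries 1 and 2 of batch B), at 6.86 ± 3.24 and 1.66 ± 1.17 CPM in the Sox2-positive cells of batches A and B. The glial and neural crest markers, which include Sox10 at 198 ± 35.3 CPM in batch A Sox2-positive cells, were high in that same group, and their part in the Gfap value was not tested.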

How the data were processed

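The authors deposited 1 table of estimated counts (expected counts, not scaled to depth) for 54347 genes in 23 libraries. The submitters' processing notes name FastQC, Trimmomatic, Salmon and build mm10; their order, versions and strand setting are not given in the sources used here. Symbols came from GENCODE M21 by Ensembl identifier without version (54094 matched, 99.5%), and start regions from RefSeq (GRCm38.p6). Values were rounded to whole numbers and tested in edgeR 4.0.16 (R 4.3.3) with TMM scaling, the quasi-likelihood F test and filterByExpr (minimum count 10), over all genes, with Benjamini-Hochberg adjustment and a threshold of 0.05. The SE of a log2 difference is its size over the square root of F. Fits were tested on simulated data.

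All keratins with a mean of at least 1 CPM over the 4 group means are named, and those reaching it in some group are named for that group. From the lists of keratin-anchoring and other intermediate filament genes, the 4 with the largest log2 differences (Pkp2, Gfap, Dsp and Eppk1) were named, plus Vim and Fam83h. Tchp, Plec, Evpl, Nes, Lmna, Krt25 and Krt28 were chosen after their values were seen. The members and lists were chosen with earlier results of these data known. Floors are 3 counts per library and cover counting error only. Within groups, counts of any 2 libraries differed by more than sampling noise (lowest chi-square over its degrees of freedom 5.19). Alternatives were DESeq2 1.42.0, limma-voom (limma 3.58.1), RLE and total-count scaling, other filters, a replicate block, and libraries left out. Chromatin accessibility libraries were not analysed here.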

Additional observations from a re-analysis of the deposited data

Results flagged for a closer look

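Each of the 16 keratins was looked at in each of the 4 groups, which hold 4 to 7 libraries; in 10 of the 59 such sets with a count, 1 library lay far from the others. The nominal rate of the rule is about 1 in 20 sets, which need not hold for sparse counts. A set with a count in only 1 library meets the rule whatever the size of that count. The 10 sets therefore cannot be read as an excess. Among batch A Sox2-negative libraries, number 4 held Krt1 at 5.49 CPM (others at most 0.427) and Krt7 at 14.9 CPM (others 0.517 to 2.78). In the same group, number 3 held Krt15 at 0.791 CPM (others at most 0.269), number 1 held Krt222 at 3.62 CPM (others 0.210 to 0.523) and number 5 held Krt6a at 0.210 CPM, a single count, with the others at 0. Among batch B Sox2-negative libraries, number 1 held Krt1 at 1.90 CPM and the others 0. Among batch A Sox2-positive libraries, number 5 held Krt6a at 0.604 CPM (others at most 0.221), number 6 held Krt8 at 279.8 CPM (others 199.96 to 229) and number 4 held Krt80 at 27.0 CPM (others 7.89 to 13.5). Among batch B Sox2-positive libraries, number 5 held Krt222 at 5.38 CPM (others at most 1.55).

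The difference between Sox2-positive and Sox2-negative cells was not the same in the batches for 3 keratins, by the interaction term in edgeR. It was smaller in batch B for Krt5 (-1.14 on the log2 scale) and Krt8 (-1.56) and larger in batch B for Krt7 (4.17).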

How the results depend on the processing

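Of 35 population differences that passed the test for the 16 keratins with a mean of at least 1 CPM, 34 kept their direction and call under every alternative that gave a value; the exception was Krt80 in batch B, lost under the replicate block (adjusted p 0.0505) and without libraries 1 and 2 of batch B (0.0535). Among keratins at that level in some groups only, the batch B call of Krt19 was lost under 5 of 19 alternatives and could not be tested under 5. DESeq2 gave no adjusted p for Krt18 in batch A and in the comparisons between batches. With no filter on low counts, 14 keratins were higher and 1 lower in batch A, and 21 were higher and 1 lower in batch B. Without that filter 2 were also lower over both batches, 8 higher in batch B against batch A among Sox2-positive cells, and 5 interactions lower. Over all genes so tested, 3326 were higher and 4221 lower of 33644 in batch A, and 4961 higher and 5610 lower of 32559 in batch B. Of 37531 genes, 7734 were lower over both batches. Of the same genes, 880 were higher in batch B among Sox2-positive cells and 787 lower for the interaction. Without libraries 1 and 2 of batch B, 1 was lower over both batches, 0 lower between batches among Sox2-negative cells, and 1 interaction lower. Of all 18629 genes then tested, 5177, 349 and 322 were lower in these comparisons, in that order. With limma-voom, 2 were higher and 0 lower between batches among Sox2-negative cells, and 9 higher and 1 lower among Sox2-positive cells. Over all 17190 genes limma-voom gave 1073 higher and 924 lower among Sox2-negative cells, and 1687 higher and 1626 lower among Sox2-positive cells. DESeq2 gave 2 higher interactions, and 804 over all 17190 genes. A level of 1 CPM in every group mean kept 7 members in place of 16. The cause of these changes was not tested, other than that an unfiltered table tests more genes and a reduced one uses fewer libraries.

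With each library left out in turn, the keratins higher numbered 8 to 10 in batch A, 13 to 15 in batch B, 15 to 16 over both batches, 5 to 7 and 2 to 6 between batches among Sox2-negative and Sox2-positive cells, and 1 to 2 for the interaction. Those lower numbered 0 in batch A, 0 to 1 in batch B (Krt27) and over both batches, 1 to 2 and 0 between batches, and 2 to 3 for the interaction, and 15 to 17 members had a mean of at least 1 CPM.

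Of the differences, 2 that had not passed changed sign over both batches. Krt222, at -0.00, was 0.0047 with DESeq2, 0.0109 with RLE scaling, 0.11 with total-count scaling, 0.0822 without a filter, 0.44 without libraries 1 and 2 of batch B and -0.16 to 0.23 with each library left out. Krt27, at -0.29, was 0.29 with the replicate block and -0.45 to 0.18 with each library left out. Scaling by total counts moved the median log2 difference of all genes from -0.12 to 0.00 over both batches, and from -0.00 to -0.15 between batches among Sox2-negative cells.

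Deviations of same-numbered libraries of the populations from their group means correlated at -0.0212 to 0.0444, and 1 of 10 correlated best with its own number. Such values cannot show whether same-numbered libraries came from the same mice. The replicate block left 0 higher interactions (Krt7, adjusted p 0.0844). It was not fitted between batches, because each block lies within a single batch. Depth limits the members below 1 CPM, since 3 counts corresponded to between 0.357 and 1.30 CPM over the libraries.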
